A study of Mus musculus with 7 samples.

Results

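The comparison of 5-hydroxymethylcytosine (5hmC) with 5-methylcytosine (5mC) at day 10 of chondrogenic differentiation covered 2745 genes, of the 3307 genes that had a peak in any of the 4 peak lists of the series. A gene was a member when the authors' peak annotation gave its symbol to at least 1 day 10 peak of either mark. Each gene was placed by these symbols in 1 of 3 classes, which were 5hmC only, both marks and 5mC only. In genes with both marks, the distances between the peaks of the marks were then measured.

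The cells were ATDC5, an established mouse chondroprogenitor line derived from a teratocarcinoma, differentiated with insulin, transferrin and selenite. The day 10 5hmC group had 2 samples, which the authors merged into 1 list with an enrichment limit of 10-fold. The day 10 5mC group had 1 sample, and its list had a limit of 3-fold. 5hmC was captured by tagging its glucosylated form and 5mC by a methyl-CpG binding complex. The number of cultures is not in the labels, and the lists hold no expression values by which the cell type could be checked. The study's stage names place the 5hmC list with intermediate cells and the 5mC list with chondrocytes, so that the day of 1 of them may differ from its label. Mark, threshold, number of merged samples and possibly day therefore differ together between the lists, and their parts in any difference between the marks cannot be told apart. The lists give no height or count per peak and depth is unknown. The intervals are 95% Wilson intervals for shares and exact binomial intervals for medians. They cover counting error over peaks or genes and not the spread between cultures.

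5mC is placed on CpG dinucleotides by DNA methyltransferases, and the TET dioxygenases oxidise it to 5hmC. 5hmC is a step in the removal of 5mC and also a stable base that is known from the bodies of active genes and from enhancers. 5mC is common in gene bodies, coding exons included, and scarce at active CpG island promoters. An enrichment assay reads a region and cannot tell whether the marks lie on the same molecule.

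Sequences of peaks at which the marks met, or nearly met, show what the lists compare. The Csf1, Fam188b and Ano2 5hmC peaks lay wholly inside a 5mC peak of the same gene, by the rule for the shortest gaps. The Pik3r1 5hmC peak lay 86 bp, and the Tet1 5hmC peak 327 bp, from a 5mC peak; these were chosen after their values were seen. Csf1 encodes a macrophage growth factor, Ano2 a chloride channel, Pik3r1 the regulatory subunit of phosphoinositide 3-kinase and Tet1 the dioxygenase that makes 5hmC. Each line gives the + strand of GRCm38 from the RefSeq assembly, 5′ to 3′, with CpG in capitals. Of the Ano2 5hmC peak and the Tet1 5mC peak, the middle 300 bases are shown.
Csf1 5hmC chr3:107762196-107762310: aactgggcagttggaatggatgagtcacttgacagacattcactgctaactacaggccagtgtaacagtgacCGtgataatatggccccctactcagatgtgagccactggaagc
Fam188b 5hmC chr6:55250733-55250849: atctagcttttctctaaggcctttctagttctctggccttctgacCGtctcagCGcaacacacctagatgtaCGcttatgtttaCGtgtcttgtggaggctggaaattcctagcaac
Ano2 5hmC chr6:125876926-125877225: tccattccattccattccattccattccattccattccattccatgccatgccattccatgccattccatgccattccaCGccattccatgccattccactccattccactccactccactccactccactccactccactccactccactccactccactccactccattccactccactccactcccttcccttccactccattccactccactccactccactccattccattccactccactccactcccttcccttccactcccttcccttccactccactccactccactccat
Pik3r1 5hmC chr13:101686269-101686385: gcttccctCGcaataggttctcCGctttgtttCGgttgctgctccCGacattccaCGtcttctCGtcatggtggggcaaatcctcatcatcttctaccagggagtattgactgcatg
Tet1 5hmC chr10:62833266-62833552: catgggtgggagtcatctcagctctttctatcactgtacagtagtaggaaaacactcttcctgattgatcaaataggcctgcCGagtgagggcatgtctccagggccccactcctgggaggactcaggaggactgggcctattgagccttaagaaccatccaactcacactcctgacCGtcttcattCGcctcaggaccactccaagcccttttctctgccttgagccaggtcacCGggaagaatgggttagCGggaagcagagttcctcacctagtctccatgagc
Tet1 5mC chr10:62834244-62834543: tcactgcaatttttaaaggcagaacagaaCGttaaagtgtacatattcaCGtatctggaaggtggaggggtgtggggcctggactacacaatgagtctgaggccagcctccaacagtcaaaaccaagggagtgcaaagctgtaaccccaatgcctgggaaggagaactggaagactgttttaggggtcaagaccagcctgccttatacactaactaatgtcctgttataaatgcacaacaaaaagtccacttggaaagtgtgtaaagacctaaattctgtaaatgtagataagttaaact
CpG content differed between these peaks. The Pik3r1 5hmC peak held 6 CpG in 117 bases and lay in a coding exon. The Fam188b peak, in an intron, held 4 CpG in 117 bases, and the Csf1 peak, upstream of the gene, held 1 in 115 bases. The Tet1 5hmC peak held 5 CpG in 287 bases. Its first and last bases are the inner ends of the study's 2 primers for genotyping the wild-type Tet1 allele. The peak thus spans nearly the product of those primers, and whether such product entered the sample was not tested. Of the Ano2 5hmC peak, 81.2% was marked as repeat in the reference, and the 300 bases shown hold 1 CpG.

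Most genes carried 1 mark. Of the 2745 genes, 1397 had 5hmC only (50.9%, 49.0 to 52.8), 1017 had 5mC only (37.0%, 35.3 to 38.9) and 331 had both (12.1%, 10.9 to 13.3). The 331 genes were 19.2% (17.4 to 21.1) of the 1728 genes with 5hmC and 24.6% (22.3 to 26.9) of the 1348 genes with 5mC. Among all 21938 annotated protein-coding genes, 1616 (7.37%) had 5hmC, 1291 (5.88%) had 5mC and 322 (1.47%) had both.

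Genes with both marks also had more peaks of each mark. They held 599 5hmC peaks, a mean of 1.81 per gene, against 1.30 in genes with 5hmC only. They held 481 5mC peaks, a mean of 1.45 per gene, against 1.16 in genes with 5mC only. In 153 of the 331 (46.2%) there was 1 peak of each mark. The genes with the most peaks in this class were Foxp1, a forkhead transcription factor, with 13 5hmC and 3 5mC peaks, Limch1, a regulator of actomyosin, with 7 and 4, and Pde4d, a cyclic AMP phosphodiesterase, with 6 and 5. Wwox, an oxidoreductase with WW domains, had 7 and 3, and 1700112E06Rik had 7 and 2. Among genes with 5hmC only, Ltbp1, which holds latent TGF-beta in the matrix, and Sorcs2, a sortilin-family receptor, had 6 peaks each, while Adamtsl1, Asap1 and Bre had 5 each. Among genes with 5mC only, Ttn, the giant sarcomere protein titin, had 9 peaks, Fryl 8, the atypical cadherin Fat1 6, Lrmp 5 and the kinesin Kif13a 4.

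These classes differed in gene length. The median length was 145.2 kb (130.8 to 162.7) for genes with both marks, 67.6 kb (63.1 to 75.2) for 5hmC only and 42.4 kb (38.5 to 47.3) for 5mC only. Protein-coding genes were then split by length into 5 groups of equal size. From the shortest to the longest group, the share with 5hmC was 1.5%, 1.82%, 3.44%, 6.91% and 23.2%, the share with 5mC was 1.41%, 2.26%, 3.76%, 6.47% and 15.5%, and the share with both was 0.0456%, 0.114%, 0.273%, 0.638% and 6.27%. Of the 322 protein-coding genes with both marks, 275 were in the longest group.

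Within the longest group 5mC was still more frequent in genes with 5hmC than in genes without. A 5mC peak was listed for 275 of its 1016 genes with 5hmC (27.1%, 24.4 to 29.9) and for 406 of its 3372 genes without 5hmC (12.0%, 11 to 13.2). When this group was split again into 5 by length, the share with 5mC was 16.7% against 8.31% among genes of 58.1 to 72.3 kb, 20.1% against 10.8%, 25.3% against 10.9% and 27.9% against 13.7% in the next groups, and 34.9% (29.7 to 40.6) against 18.1% (15.2 to 21.4) among genes of 220.1 kb or more. The share was thus higher in genes with 5hmC in all 5 narrower groups, and the intervals overlapped in none of them. The genes were split by length alone. The shares with 5hmC and with 5mC also rose and fell together over the 19 autosomes (Pearson's r of 0.859), and the part of this in the result was not tested.

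**Figure D1:**
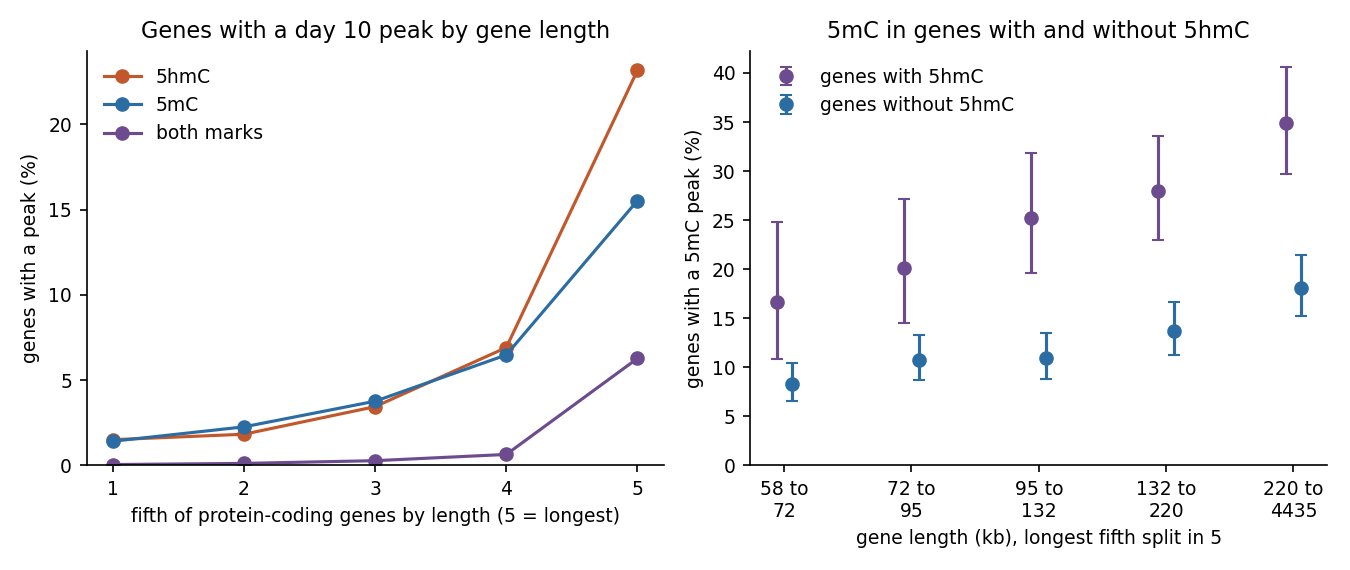
Left, the percentage of protein-coding genes with a day 10 5hmC peak, a 5mC peak or both in 5 groups of equal size by gene length; right, the percentage with a 5mC peak among genes with and without 5hmC in the longest group, split again into 5 by length in kb, with 95% Wilson intervals. The share with both marks is 6.27% in the longest group and 0.638% in the next, and the points for genes with 5hmC lie above those without in each of the 5 narrower groups.

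Peaks of the marks rarely overlapped inside the genes that had both. The shortest gap between a 5hmC and a 5mC peak of the gene had a median of 20.3 kb (17.6 to 25.4), with quartiles of 8.27 and 47.8 kb and a maximum of 367.1 kb. The peaks overlapped in 10 of the 331 genes, and the gap was at most 1000 bp in 20 (6.04%, 3.95 to 9.15), at most 5000 bp in 59 (17.8%) and at most 10000 bp in 95 (28.7%). Relative to the gene's length, the median gap was 15.8%, with quartiles of 5.48% and 39.8% (327 genes with an annotated length). The gap was larger in longer genes, with a median of 6.34 kb in the 12 genes of the middle length group, 15.1 kb in the 28 of the next and 26.0 kb in the 275 of the longest.

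Gaps between peaks of the same mark are given beside these as values. A gene with 2 5hmC peaks and 1 5mC peak has 1 pair of the same mark but 2 pairs across the marks, and more pairs give a shorter shortest gap, so the values were not tested against each other. In the 134 genes with several 5hmC peaks, the shortest gap between 2 of them had a median of 22.8 kb (17.0 to 31.9), and in the same genes the shortest gap to 5mC had a median of 16.1 kb (12.1 to 21). In the 97 genes with several 5mC peaks, the median was 26.2 kb (15.5 to 38.2) between 5mC peaks and 18.9 kb (13.9 to 25.9) to 5hmC. These intervals overlap. In 22 of the 134 genes (16.4%, 11.1 to 23.6) 2 5hmC peaks lay within 1000 bp of each other, and in 11 of the same genes (8.21%, 4.65 to 14.1) a 5mC peak lay that close to 5hmC, which are also intervals that overlap. Narrow 5hmC peaks can stand side by side in 1 region, and peaks of the same list cannot overlap. Taking all pairs in a gene in place of the closest gave a median of 39.0 kb between the marks. When genes were assigned from the annotation, by overlap with the body or the 5000 bp upstream, the count within 1000 bp was 60 of 451 genes with both marks.

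**Figure D2:**
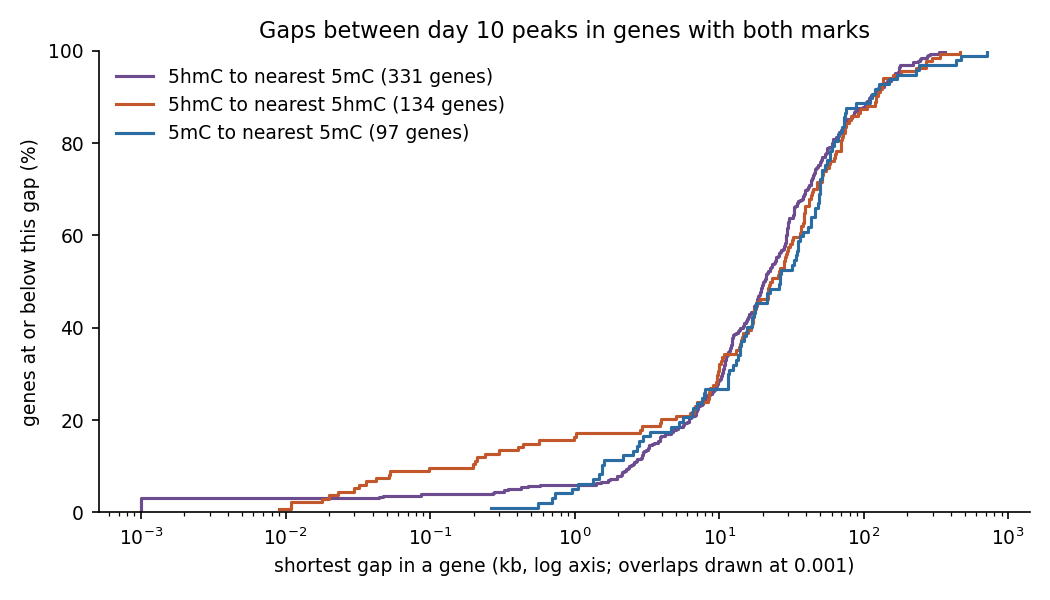
Cumulative percentage of genes with both marks (y) by the shortest gap in the gene in kb (x, log axis, overlaps drawn at 0.001 kb) from 5hmC to 5mC (331 genes), 5hmC to 5hmC (134 genes) and 5mC to 5mC (97 genes). The lines run close together above 10 kb, while below 1 kb the line between 5hmC peaks lies above that between the marks.

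The 10 genes in which peaks of the marks overlapped were Ano2, Csf1, Fam188b, Kif14, Lipc, Myc, Pkd2, Rn45s, Ttc28 and Zfp821. In 8 of them a 5hmC peak lay wholly inside the 5mC peak. At Csf1 and at Kif14, a mitotic kinesin, the overlap lay in the 5000 bp upstream of the gene. At Myc, the growth-promoting transcription factor, both 5hmC peaks (850 and 648 bp wide) lay in coding exons and within a single 5mC peak of 3413 bp. At Pkd2, a cation channel, 102 of the 168 bp of the 5hmC peak were shared, and at Ttc28 84 of 188 bp were. At Rn45s, the ribosomal RNA precursor, 3 5hmC peaks lay within a 5mC peak of 6420 bp. That gene exists in many near-identical copies, so its peaks cannot be placed on 1 copy and its value is uncertain. Repeats made up more than 50% of the 5hmC peak at Ano2 (81.2%), Lipc (52.0%) and Zfp821 (71.2%).

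Another 10 genes had the marks within 1000 bp without overlap. They were Enpp3 (44 bp), Pxn (47 bp), Pik3r1 (86 bp), Sh3pxd2a (272 bp), 4933407C03Rik (277 bp), Tet1 (327 bp), Bst1 (349 bp), Rbks (425 bp), Sept9 (476 bp) and Wwc1 (574 bp), of which only Pik3r1 and Tet1 were named by the rule and the others after their values were seen. Pxn encodes paxillin, an adaptor at focal adhesions. The peaks of the day 5 5hmC list, made from 2 other merged samples, overlapped some of these sites. A day 5 5hmC peak overlapped the day 10 5mC peak of the closest pair in 9 of the 20 genes with a gap of at most 1000 bp (45.0%, 25.8 to 65.8) and in 2 of the other 311 (0.643%, 0.177 to 2.31). It overlapped the day 10 5hmC peak of the pair in 10 of the 20 (50%, 29.9 to 70.1) and in 48 of the 311 (15.4%, 11.8 to 19.9). At sites this close, 1 wide day 5 peak can reach both marks, so these counts are not independent of each other.

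Outside the genes with both marks, the other mark was far away. The nearest 5mC peak, in any gene or none, was a median of 37.4 kb from 5hmC peaks in genes with both and 309.8 kb from 5hmC peaks in genes with 5hmC only. The nearest 5hmC peak was 26.8 kb from 5mC peaks in genes with both and 168.3 kb from those in genes with 5mC only. The classes fix most of this difference. The 5hmC peaks without a gene, which the classes do not use, were 265.5 kb from the nearest 5mC peak, and 16 of these 1755 peaks overlapped 5mC (0.912%, 0.562 to 1.48), 5 of them on the mitochondrial chromosome.

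The marks lay in different parts of genes. Peaks were placed against GENCODE gene models of the assigned gene, by any overlap and in the order promoter (5000 bp upstream), coding exon, other exon and intron. Of 2380 5hmC peaks, 77.2% (75.5 to 78.8) were intronic and 5.50% (4.66 to 6.49) reached a coding exon. Of 1657 5mC peaks, 37.7% (35.4 to 40.0) were intronic and 48.3% (45.9 to 50.7) reached a coding exon. Both differences passed a two-sided Fisher's exact test over peaks, with a Benjamini-Hochberg adjusted p over 12 tests of 4.41e-229 for coding exons and 3.09e-142 for introns. The test compares the peaks of 2 lists and not samples. The median 5mC peak was 1006 bp wide and the median 5hmC peak 147 bp, so a 5mC peak has more chance to reach an exon. By the midpoint alone, 24.1% of 5mC and 3.11% of 5hmC peaks were in coding exons. Promoters held 6.55% of 5hmC and 5.49% of 5mC peaks, which did not pass the exact test (adjusted p = 0.218). By midpoints these shares were 6.18% and 4.10% (Fisher's exact test, adjusted p = 0.00642), and with promoters of 2000 bp the difference was -0.0205 percentage points.

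Among the genes with the most peaks, 5hmC was mostly intronic and 5mC varied. All 9 Ttn peaks, all 6 Fat1 peaks, 6 of the 8 Fryl peaks, 2 of the 4 Kif13a peaks and 2 of the 5 Lrmp peaks of 5mC reached a coding exon. In the genes with both marks, 2 of the 4 Limch1, 1 of the 5 Pde4d and 1 of the 3 Foxp1 peaks of 5mC did, while all 3 Wwox and both 1700112E06Rik peaks of 5mC were intronic. All 13 Foxp1, all 7 Wwox, all 7 1700112E06Rik, all 6 Pde4d, all 6 Ltbp1, all 6 Sorcs2, all 5 Adamtsl1 and all 5 Bre peaks of 5hmC were intronic, as were 6 of the 7 in Limch1 and 4 of the 5 in Asap1. Of the closest pairs in genes with both marks, 160 of 327 (48.9%) had both peaks in introns and 98 (30.0%) an intronic 5hmC peak with a 5mC peak in a coding exon. There were 4 pairs with both in coding exons, at a median gap of 5.34 kb.

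Location also differed between classes for each mark. Of the 5hmC peaks in genes with both marks, 87.6% (84.7 to 90.0) were intronic and 2.89% were in promoters, against 73.8% (71.7 to 75.8) and 7.76% in genes with 5hmC only (Fisher's exact test, adjusted p = 1.89e-12 and 2.50e-05). Of the 5mC peaks, 53.6% were intronic and 37.6% in coding exons in genes with both, against 31.2% and 52.6% in genes with 5mC only (Fisher's exact test, adjusted p = 1.77e-16 and 9.03e-08). These classes differ in length, and long genes are mostly intron. In the longest length group alone, an alternative chosen after seeing the data, the 5hmC shares were 90.9% and 88.1% intronic (adjusted p = 0.181) and 1.52% and 3.18% in promoters (adjusted p = 0.132), so neither passed the exact test. The 5mC differences still passed the exact test there, with 58.2% against 45.6% intronic (adjusted p = 5.81e-04) and 34.5% against 46.2% in coding exons (adjusted p = 9.86e-04). Length was not matched inside this group. Its protein-coding genes with both marks had a median of 169.5 kb, those with 5hmC only 134.9 kb and those with 5mC only 121.3 kb. 5mC promoter peaks made up 2.52% in genes with both and 6.69% in genes with 5mC only (Fisher's exact test, adjusted p = 8.27e-04), which did not pass by midpoints (adjusted p = 0.0535) or in the longest group (adjusted p = 0.895).

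**Figure D3:**
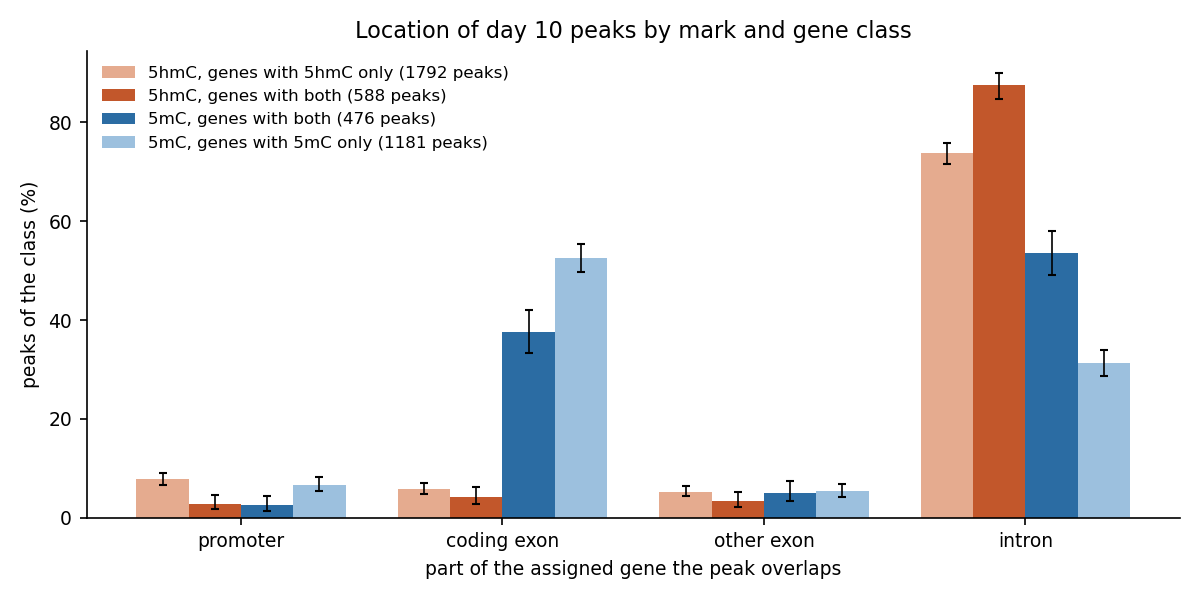
Percentage of day 10 peaks (y, bars from 0, 95% Wilson intervals) in the promoter, coding exons, other exons and introns of the assigned gene (x) for each mark and gene class. Coding exons hold 37.6% and 52.6% of 5mC peaks but 4.25% and 5.92% of 5hmC peaks, and introns hold the larger share of 5hmC peaks.

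In genes with 1 mark, 5mC lay further from the start of the gene than 5hmC. In genes with both marks the median position of peaks inside the body was 50.8% (45.5 to 55.6) of the gene for 5hmC and 61.7% (54.0 to 65.6) for 5mC, and these intervals overlap. In genes with 5hmC only and 5mC only it was 47.1% (44.5 to 49.8) for 5hmC and 60.6% (56.9 to 63.1) for 5mC, and these do not. The 5hmC peak of the closest pair lay upstream of the 5mC peak in 180 of 327 genes (55.0%, 49.6 to 60.3), an interval that includes an even split. Among genes with 1 peak of each mark this share was 60.9%.

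Peaks of both marks were richer in CpG than the DNA around them, 5mC more than 5hmC. In genes with both marks the median was 2.38 CpG per 100 bp (2.27 to 2.48) in 5mC peaks and 1.95 (1.84 to 2.08) in 5hmC peaks. It was 1.20 and 1.06 in flanks of equal width that start 2000 bp from the peak. In genes with 1 mark it was 2.54 (2.47 to 2.62) for 5mC and 1.80 (1.70 to 1.88) for 5hmC. Content was above the flanks in 89.4% of 5mC and 72.0% of 5hmC peaks of genes with both. A 5hmC peak without any CpG occurred in 25 of 599 cases there (4.17%), while each of the 481 5mC peaks held at least 1. The median widths there were 158 bp for 5hmC and 1018 bp for 5mC. A wider peak more readily holds a CpG or exceeds its flanks, so these shares do not compare the marks at like width. The 5mC capture itself binds methylated CpG, and the part of this in the CpG content was not tested. In windows of 200 bp at peak centres, which remove the difference in width, the medians in genes with both were 3 per 100 bp for 5mC and 2 for 5hmC. Location bore on the content, with medians of 2.82 in 5mC peaks at coding exons and 2.12 in introns, and of 2.33 and 1.80 for 5hmC. Within introns 5mC peaks (2.06 to 2.21) still held more CpG than 5hmC peaks (1.72 to 1.87).

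The AP-1 and NF1 motifs were more frequent in 5hmC than in 5mC peaks, in genes with both marks as in genes with 1. In 200 bp windows, the AP-1 motif (TGACTCA or TGAGTCA, either strand) was in 9.52% (7.42 to 12.1) of 5hmC peaks of genes with both marks and in 3.34% (2.46 to 4.51) of their flanks. It was in 9.83% (8.55 to 11.3) of 5hmC peaks of genes with 5hmC only. In 5mC peaks it was in 3.53% (2.22 to 5.59) of genes with both and 2.70% (1.92 to 3.79) of genes with 5mC only, with flanks at 3.95% and 3.51%. The NF1 motif (CTGCCAAG or TTGCCAAG) was in 5.34% (3.81 to 7.44) of 5hmC and 1.25% (0.573 to 2.69) of 5mC peaks of genes with both, and in 5.91% (4.92 to 7.09) and 1.94% (1.30 to 2.90) of those of genes with 1 mark. The RUNX motif (AACCACA) was in 8.01% (6.10 to 10.5) and 4.16% (2.71 to 6.33), intervals that overlap, against flanks of 5.93% and 3.85%. In genes with 1 mark it was in 9.06% (7.82 to 10.5) of 5hmC and 3.8% (2.85 to 5.05) of 5mC peaks, intervals that do not overlap, against flanks of 4.97% and 4.52%. The SOX motif (ACAAAGG or ACAATGG) was in 7.35% and 5.61%, no more than in flanks at 7.76% and 6.44%. A match says only that these letters stand in the window.

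**Figure D4:**
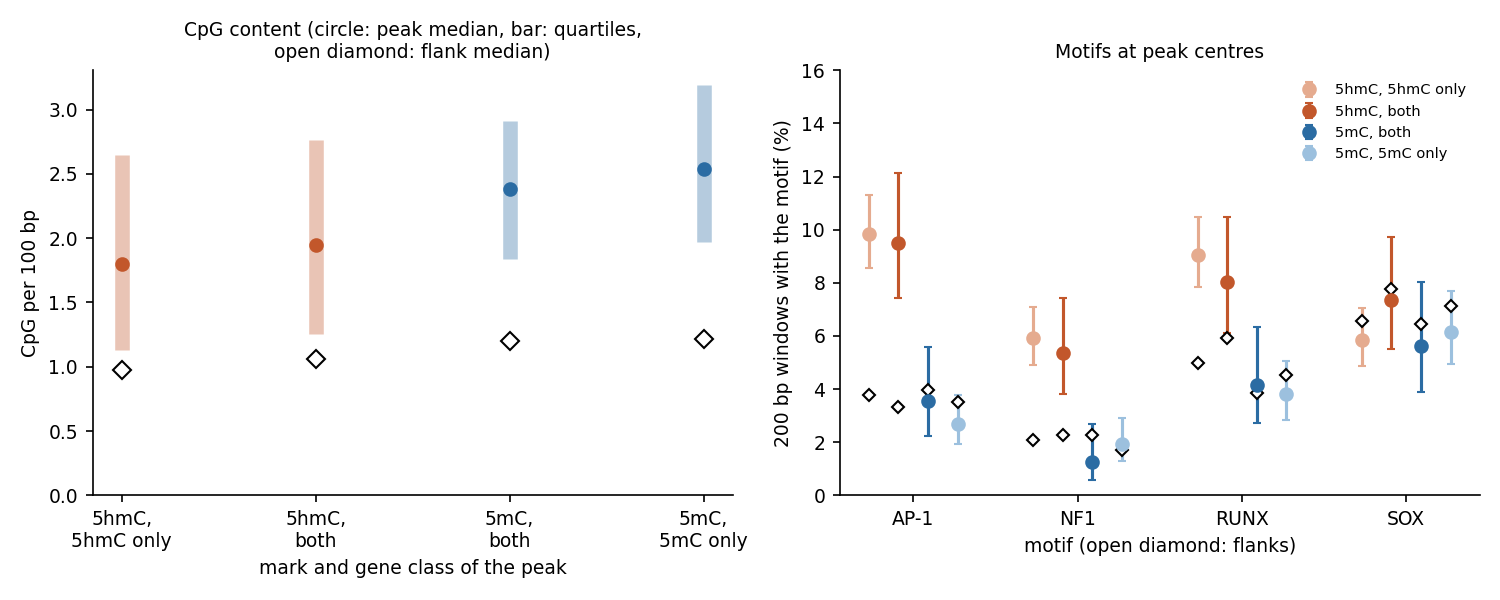
Left, median CpG per 100 bp of day 10 peaks with quartile bars and of their flanks (open diamonds) by mark and gene class; right, percentage of 200 bp windows at peak centres with each motif, with 95% Wilson intervals, and of flank windows (open diamonds). 5mC peaks lie higher in CpG content, and the AP-1, NF1 and RUNX points of 5hmC peaks lie above those of 5mC peaks in both kinds of class.

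Genes with both marks also had 5hmC at day 5 more often. A day 5 5hmC peak was listed for 42.5% (37.3 to 48.0) of protein-coding genes with both, 26.7% (24.3 to 29.1) with 5hmC only, 6.91% (5.48 to 8.69) with 5mC only and 2.39% with neither. In the longest length group these shares were 45.8% (40.0 to 51.7), 32.7% (29.4 to 36.1), 12.8% (9.90 to 16.4) and 6.14%. The median lengths in this group fell in the same order, at 169.5, 134.9, 121.3 and 101.2 kb, and genes of like length were not compared. Peaks themselves were less often shared, since 17.4% (14.5 to 20.6) of day 10 5hmC peaks of genes with both and 15.4% (13.8 to 17.2) of those with 5hmC only overlapped a day 5 peak, and these intervals overlap. Of 5mC peaks, 11 of 481 in genes with both (2.29%, 1.28 to 4.05) and 3 of 1184 in genes with 5mC only (0.253%, 0.0862 to 0.742) did. Day 0 5mC was listed for 1.31% to 1.55% of genes in each of the 3 classes and for 0.377% (0.300 to 0.474) of genes with neither. In the longest length group these shares were 1.82% to 2.22% and 1.38%.

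Among 22 genes for writing, oxidising and binding modified cytosine, 1 had 5hmC (4.55%) and 2 had 5mC (9.09%), shares near those of all protein-coding genes (7.37% and 5.88%). Tet1 had both marks, the methyl-CpG binding protein Mbd2 had 2 5mC peaks in coding exons and 20 had neither, Tet2 and Tet3 included. Tet1 spans chr10:62804570-62908996 on the minus strand. Its 5hmC peaks lay at chr10:62833266-62833552, in a coding exon, and at chr10:62851523-62851695, in an intron, and its 5mC peak at chr10:62833880-62834907, in an intron. The 5hmC peak in the coding exon, from which the gap of 327 bp was taken, is the one that matches the genotyping product. Its origin was not tested. A gene without a listed peak may still carry the mark below the threshold.

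Genes of the list of RUNX factors, their partners and NFI factors mostly had 5hmC. Of its 11 genes, 8 had 5hmC (72.7%, against 7.37% of all protein-coding genes and 23.2% of the longest group) and 3 had 5mC (27.3%, against 5.88% and 15.5%). Runx1t1 and Cbfa2t3, which are not RUNX or NFI factors themselves, were among those with 5hmC, with 1 intronic peak each. The list had a median length of 102.9 kb. Nfib and Runx1 had 3 intronic 5hmC peaks each, Nfia had 1 in its promoter, Runx3 and Cbfb had 1 5mC peak each, and Runx2, the regulator of chondrocyte hypertrophy and bone, had both. The Runx2 peaks were 2 of 5hmC and 1 of 5mC, all intronic, with a gap of 10.9 kb. Of 19 SOX genes 2 had 5hmC (10.5%) and 2 had 5mC (10.5%). Sox5, a partner of SOX9 in cartilage, had 5 5hmC and 2 5mC peaks, all intronic, with a gap of 12.3 kb, Sox12 had 5hmC, Sox13 had 5mC and 16 had neither. Sox9 had no day 10 peak of either mark in these lists, while the study describes 5hmC peaks at Sox9 later in differentiation. A day 5 5hmC peak assigned to it had its midpoint 6275 bp from the start, beyond the gene's end. Of 13 TEAD and YAP genes 3 had 5hmC (23.1%) and 1 had 5mC (7.69%), which were Yap1 and Vgll4 with 5hmC and the kinase gene Stk4 with both. Of 18 AP-1 genes 1 had 5hmC (5.56%), which was Jdp2, and 0 had 5mC. The AP-1 share with 5hmC lies near that of all protein-coding genes, and the SOX counts are too small to set apart from it.

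**Figure D5:**
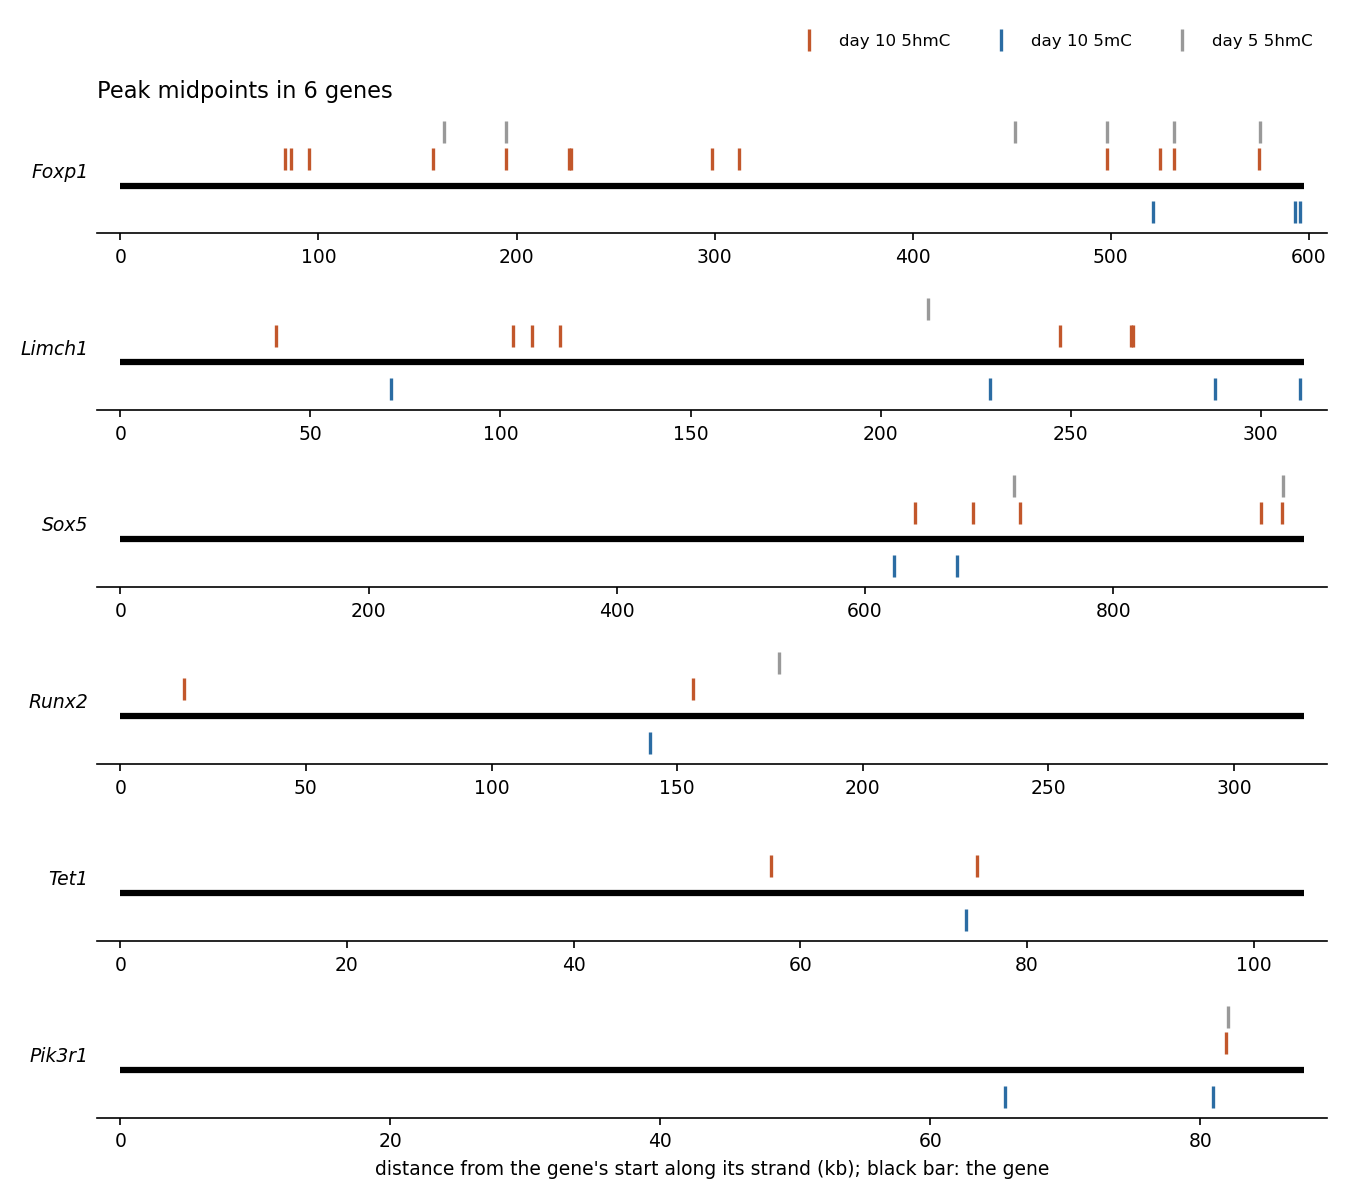
Midpoints of day 10 5hmC (red), day 10 5mC (blue) and day 5 5hmC (grey) peaks along Foxp1, Limch1, Sox5, Runx2, Tet1 and Pik3r1, as distance in kb from the gene's start along its strand, with the gene as a black bar. The marks alternate along Limch1, the 5mC peaks of Foxp1 lie toward its 3′ end, and the marks come within 86 bp and 327 bp of each other in Pik3r1 and Tet1.

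Of 44 collagen genes, of median length 114.4 kb, 17 had 5hmC (38.6%) and 5 had 5mC (11.4%). These shares were 7.37% and 5.88% over all protein-coding genes, where 5hmC was also the more frequent mark, and 23.2% and 15.5% in the longest length group. Col6a6, Col24a1, Col26a1 and Col27a1 had both, all peaks in introns, with gaps of 12.5, 19.4, 83.4 and 10.4 kb. Col14a1 had 3 intronic 5hmC peaks and Col5a1, Col6a3 and Col8a1 had 2 each. Col11a1, a partner of type II collagen in cartilage fibrils, had 1 in its promoter, and Col22a1 had 2 5mC peaks and no 5hmC. Col2a1 had no day 10 peak in these lists. The study, however, reports more 5hmC at Col2a1 and Acan at day 10 than before differentiation. It shows this as read density, while the 5hmC list was cut at 10-fold. Of 44 cartilage matrix genes (median 15.8 kb), 7 had 5hmC (15.9%), 2 had 5mC (4.55%) and none had both, against 1.47% of all protein-coding genes. Fbn1 had 4 5hmC peaks, Hapln1, the link protein of cartilage proteoglycan, and Matn3 had 1 each, Fn1 and Fbn2 had 5mC, and Acan had no peak. Of 38 matrix proteases and inhibitors (median 26.5 kb), 10 had 5hmC (26.3%) and 3 had 5mC (7.89%), with 3 5hmC peaks at Mmp2, 2 each at Adamts3 and Adamts9, and both marks at Adamts2, which trims procollagen, 11.4 kb apart.

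In the TGF-beta and BMP list, of median length 42.6 kb, 9 of 50 had 5hmC (18%) and 2 had 5mC (4%), beside 7.37% and 5.88% of all protein-coding genes. Tgfbr2, a TGF-beta receptor, had 2 intronic 5hmC peaks, the nearer of them 9.88 kb from a 5mC peak in a coding exon. Smad3 and Acvr1 had 3 intronic 5hmC peaks each, and Bmpr1b had 5mC. In the WNT list (median 35.7 kb) 16 of 59 had 5hmC (27.1%) and 10 had 5mC (16.9%). Tcf7l2, a nuclear effector of WNT, had 4 5hmC and 5 5mC peaks with a gap of 2.33 kb, while Tcf7l1, Fzd6 and Ror1 had gaps of 40.8, 21 and 249.4 kb. Ror2 had 3 5hmC peaks, and Lef1, with 2 peaks, and Axin2 had 5mC. In the hedgehog, PTHrP and Notch list (median 25.1 kb) 7 of 29 had 5hmC (24.1%) and 2 had 5mC (6.90%). These 2 were Jag1 and Maml3, which also had 5hmC, with gaps of 3.03 and 29.0 kb. Pth1r, the PTHrP receptor, had a 5hmC peak in a coding exon.

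In the insulin and PI3K list, of interest since insulin drives this culture, 8 of 33 had 5hmC (24.2%) and 7 had 5mC (21.2%). Its median length was 84.9 kb, and the shares over all protein-coding genes were 7.37% and 5.88%, or 23.2% and 15.5% in the longest length group. Igf1r, a receptor for insulin-like growth factor that insulin also binds, had 2 5hmC peaks and, in coding exons, 2 5mC peaks. The shortest gap between the marks there was 26.8 kb. Pik3r1, Grb10 and Igf2bp3 also had both, with gaps of 86 bp, 30.5 kb and 3.29 kb, and Mtor had 4 intronic 5hmC peaks. In the FGF and MAP kinase list (median 61.8 kb) 4 of 41 had 5hmC (9.76%) and 10 had 5mC (24.4%). Fgfr1 and Fgfr2 had a 5mC peak in a coding exon and no 5hmC, Map3k1 and Map3k4 had 3 5mC peaks each, and Map2k6, with both, had 5 5mC peaks and 1 of 5hmC. Spred2 and Map2k5 had 1 peak of each mark.

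Of 63 histone modifying and remodelling genes (median 77.8 kb), 14 had 5mC (22.2%) and 9 had 5hmC (14.3%), beside 5.88% and 7.37% of all protein-coding genes and 15.5% and 23.2% of the longest length group. Kmt2d and Smarca2 had 2 5mC peaks each in coding exons, Setd2, Kdm4a, Chd1, Chd4 and Ncor1 had 1 in a coding exon, Prdm16 and Mecom had 2 intronic 5hmC peaks each, and Arid1b and Arid5b had both. Of 43 integrins and cadherins (median 119.7 kb), 12 had 5mC (27.9%) and 9 had 5hmC (20.9%). Itga1, Itga6 and Itga9, 3 integrin alpha chains, had a 5mC peak in a coding exon, Itga8 and Itgb5 had 2 and 3 intronic 5hmC peaks, and Itgb3, Cdh13 and Cdh23 had both. Of 50 axon guidance genes, 13 had 5hmC (26.0%) and 7 had 5mC (14.0%), and Sema3e, Efna5 and Slit3 had both. Of 38 nuclear receptor genes (median 56.5 kb), 7 had 5hmC (18.4%) and 3 had 5mC (7.89%), and Rora had both, 39.0 kb apart. Median gene lengths ranged from 4.83 kb for SOX genes to 144.1 kb for axon guidance genes, and both marks were more frequent in long genes, so differences between lists in the number of genes with a peak were not tested.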

How the data were processed

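The deposited files were 4 peak lists giving chromosome, start and end, with the symbol of a gene where the authors assigned 1. Per the study's methods, reads were checked with FastQC, trimmed with cutadapt and aligned to GRCm38 with BWA, peaks were called with MACS 1.4.2 and genes were assigned by peak annotation. The sample used as control for each list is not given in the sources used here, and the lists may hold differences between stages and not all sites of a mark. The day 10 lists held 4164 5hmC and 2401 5mC peaks, of which 57.9% and 69.3% had a gene. Empty rows (25449 in the 5hmC list) were dropped. The 5 symbols stored as dates were kept as stored for the classes and pairs, and the matched gene's symbol was used only when naming a gene. Symbols, or where these failed accessions or synonyms, were matched to genes of GENCODE release M21 on GRCm38. The nearest gene of that name on the peak's chromosome was taken, with only a wide limit on distance. Of the gene peaks, 98.8% of 5hmC and 99.5% of 5mC matched.

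Coordinates were read as 1-based and inclusive, and a gap is the number of bases between 2 peaks. Repeats are lower-case bases of the reference. Shares were given with Wilson intervals and peak locations by Fisher's exact test (two-sided), adjusted by the Benjamini-Hochberg method over 12 tests. The routines for gaps, for Fisher's exact test and for median intervals were tested on simulated data, while those for locations and class counts were not. Python 3.11.15, pandas 2.3.3, SciPy 1.17.1 and samtools 1.23.1 were used.

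The members, gene lists and tests were chosen with earlier results of these data known. The named genes were the 10 with the shortest gap, the 5 with most peaks in each class, list members with both marks, up to 4 members with 1 mark and the most peaks in each list, and Sox9, Col2a1, Acan, Tet1, Tet2 and Tet3. Other genes were named after their values were seen. Alternatives covered gene assignment, peak width, gene type, the definition of gap, overlap and promoter, and the CpG window. The day 0 input DNA was not analysed here.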

Additional observations from a re-analysis of the deposited data

How the results depend on the processing

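No paired analysis was possible because both 5hmC samples of a day stand in a single merged list. No sample could be left out for the same reason. A filter on fold or score was not run, since the lists hold none. Under the alternatives 75 values kept their direction, their side of the threshold or their range. With only peaks at least as wide as the median of their list, the counts of genes with 5hmC only, both and 5mC only were 835, 128 and 602. The median gap was 16.1 kb with genes assigned by body or 5000 bp upstream and 39.0 kb over all pairs, and the number of genes with a gap of at most 1000 bp was 60 and 10 under these settings. Overlap of 5hmC with 5mC peaks in genes with both fell from 13 peaks to 0 when the overlap had to reach 50% of each peak's length, and was 24 with gaps of up to 1000 bp. Median widths were 147 bp for 5hmC and 1006 bp for 5mC. Even a 5hmC peak wholly inside a 5mC peak could thus seldom reach 50% of it, so the 0 does not show a lack of overlap. The promoter difference between the marks was -0.0205 points with 2000 bp promoters and 2.07 points by midpoints, and the other exon difference was -3.09 points by midpoints. The 5mC promoter difference between classes was -2.22 points by midpoints. In the longest genes, chosen after seeing the data, the 5hmC class differences were -1.66 points for promoters, 2.78 for introns and 0.227 for other exons, and the 5mC ones -0.413 for promoters and 1.59 for other exons, the last being 0.441 in protein-coding genes. Median CpG per 100 bp in 5hmC only peaks was 1.5 in 200 bp windows and 1.93 outside repeats, in 5mC peaks of genes with both 3 and 2.50, and in 5mC only peaks 3.5 and 2.71. 5hmC lay upstream in 60.9% of pairs in genes with 1 peak of each mark. The causes were not tested. Depth is unknown, so a missing peak does not show a missing mark.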

Other observations

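Genes with both marks were unevenly spread over chromosomes. They made up 3.57% of protein-coding genes on chromosome 5, 2.94% on chromosome 10 and 2.88% on chromosome 6, against 0.148% on chromosome 7. On the X chromosome few genes had either mark, 12 of 948 with 5hmC (1.27%) and 8 with 5mC (0.844%), and 0 had both. By the rule of 3, which divides 3 by the number of genes and is not a Wilson limit, this allows a share of up to 0.316%. On chromosome 5, 12.2% of genes had 5hmC and 12.6% had 5mC, and on chromosome 7 these shares were 3.31% and 1.73%. Over the 19 autosomes the share of genes with 5hmC and the share with 5mC had a Pearson's r of 0.859 and a Spearman's rho of 0.839. These are descriptions, since the points of both marks share the same genes and cell line. The share of genes in the longest length group was 23.7% on chromosome 5, 22.9% on chromosome 10, 22.1% on chromosome 6 and 11.4% on chromosome 7. The day 5 5hmC list, which the comparison of the marks at day 10 does not use, covered 7.62% of genes on chromosome 5 and 1.38% on chromosome 7.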
